A study of Homo sapiens with 16 samples.

Results

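The transcripts described here encode secreted proteins of the transforming growth factor beta (TGF-beta) superfamily and a matrix protein that TGF-beta induces. They were chosen by gene symbol: GDF15, TGFB1, TGFB2, TGFB3, BMP2, BMP4, BMP7, INHBA and TGFBI, which makes 9 names. Of these, 8 were matched to a row by Ensembl identifier among 26410 genes, and BMP4 was not analysed here. RNA was sequenced from SH-SY5Y, an established human neuroblastoma cell line, in which the ion channel TRPM2 had been targeted with CRISPR. The 16 libraries came from KO11 and KO28, which are 2 clones labelled TRPM2 KO, and from 2 clones made with a scrambled guide RNA (Scr13 and Scr16). Each clone gave 2 untreated replicates and 2 replicates treated for 24 h with doxorubicin, a chemotherapy drug that damages DNA. This gave 4 libraries in each of 4 groups. The KO clones carried a deletion at the start of the TRPM2 coding sequence, and KO and Scr clones alike were grown from single cells after selection with a donor vector for GFP and puromycin resistance. The dose of doxorubicin is 0.3 µM in the sample labels and 3 µM in the design text of the series. Between 10481177 and 25086085 reads per library fell on genes. Values are normalized CPM, which are reads scaled to library size with a normalization factor, and a level of 3 reads came to between 0.118 and 0.285 normalized CPM.

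TRPM2 was examined first, as a check of the labels. Without treatment, it had 0.118, 0.115, 0 and 0 normalized CPM in the Scr libraries (Scr13, then Scr16) and 1.93, 2.23, 1.41 and 2.19 in the libraries labelled TRPM2 KO (KO11, then KO28). After doxorubicin, the Scr libraries had 0.0594, 0.0631, 1.33 and 0.390 normalized CPM, and the libraries labelled TRPM2 KO had 1.22, 1.83, 1.37 and 0.658. All untreated libraries labelled TRPM2 KO were thus above all untreated Scr libraries (exact permutation test of 4 against 4 libraries, two-sided p = 0.0286, the smallest this design allows), and the treated groups overlapped. The untreated reads went against the label. They were summed over the gene, so reads of the deleted part were not examined. Every KO direction below is that of the libraries labelled TRPM2 KO. The neuroblastoma identity of the cells was examined with 9 markers of noradrenergic neuroblastoma. Of these, 8 were abundant, with DBH at 1635 ± 219 normalized CPM (SD, n = 4) in untreated Scr libraries, and TH, which encodes tyrosine hydroxylase, was at 0.287 ± 0.335 (SD, n = 4).

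Ligands of the TGF-beta superfamily are made as dimeric precursors and bind pairs of type I and type II receptor kinases, which phosphorylate SMAD proteins. TGF-beta and activin signal mainly through SMAD2 and SMAD3, and bone morphogenetic proteins (BMPs) through SMAD1, SMAD5 and SMAD9, all with SMAD4. TGF-beta is secreted bound to a latency peptide and to latent TGF-beta binding proteins and has to be released before it acts, whereas many BMPs are held back by soluble antagonists such as chordin. GDF15 is a distant member that is induced by p53 and by the integrated stress response and signals in the hindbrain through GFRAL and the kinase RET. In sympathetic neuron precursors, from which neuroblastoma arises, BMPs induce the noradrenergic programme.

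The core promoters are shown as a description of the members, and their relation to the response to doxorubicin was not tested. RefSeq promoter sequences of GRCh38.p14 matched 6 of the 8 members, with 7 start sites. BMP2 and BMP7 had no entry. The 30 bases from 35 to 6 before the start site are given below, 5′ to 3′ on the gene's strand. Capitals mark the letters of the TATA box (TATAAA), the element that binds the TATA-binding protein. Whether these matches are bound was not tested.
GDF15 (chr19:18386123-18386152, + strand): ggggacTATAAAggccggtccggcagcatc
TGFB1 (chr19:41353928-41353957, - strand): ggcttcaaaaccccctgccgacccagccgg
TGFB2 (chr1:218345301-218345330, + strand): agaactTATAAAtctcccctccccggcaag
TGFB3, upstream start (chr14:75983017-75983046, - strand): cggggtgcggggagccacgtgccctaccct
TGFB3, downstream start (chr14:75982001-75982030, - strand): ggaggTATAAAatttcagcagagagaaata
INHBA (chr7:41703096-41703125, - strand): gtggtgtacaaataagtagtacagTATAAA
TGFBI (chr5:136028953-136028982, + strand): agcttacttaacctggcccgggcggcggag
These letters began 29 bases before the start in GDF15 and TGFB2, 30 bases before the downstream start of TGFB3 and 11 bases before that of INHBA. They were found on either strand in 11.5% of all 35116 RefSeq promoters of 300 bases (250 before the start and 50 after). TGFB1 had no TATA box in this window and 7 GC boxes (GGGCGG, either strand), TGFBI had 4 and GDF15 had 2, where 45.0% of all promoters held at least 1. A p53 half-site, present in 6.63% of promoters, was matched once, at the upstream start of TGFB3. TGFBI also held 1 match to the BMP SMAD site (GGCGCC, 19.2% of promoters). The letters of AP-1 (TGANTCA, 7.71%), CRE (TGACGTCA, 1.85%), the ATF4 element (TGATGNAA, 3.62%) and the palindromic SMAD site (GTCTAGAC, 0.202%) were not in these windows, which says nothing of sites elsewhere. All motifs were searched on both strands, and the GC box and the BMP SMAD site can lie next to each other or overlap.

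Scaled to exon length, so that genes can be set side by side, TGFB1, BMP7 and GDF15 were the abundant members and the other 5 were low. In untreated Scr libraries, TGFB1 had 5.18 ± 1.02 normalized CPM per kilobase, BMP7 3.33 ± 1.88 and GDF15 1.94 ± 0.534 (SD, n = 4 libraries each). The mean ± SD ranges of neighbours in this order overlapped. BMP2 followed with 0.494 ± 0.0817 and TGFB2 with 0.364 ± 0.357, and TGFB3, INHBA and TGFBI lay below 0.1 (SD, n = 4). In treated Scr libraries GDF15 came first, at 50.4 ± 17.3 normalized CPM per kilobase, above TGFB1 with 10.1 ± 0.529 and BMP7 with 4.93 ± 2.50 (SD, n = 4), and these ranges were separate. In treated libraries labelled TRPM2 KO, GDF15 had 84.7 ± 6.21 normalized CPM per kilobase, and BMP7 with 17.6 ± 0.812 and TGFB1 with 16.0 ± 1.80 did not differ beyond their spread (SD, n = 4). The levels of all members in each library are plotted with their group means.

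**Figure D1:**
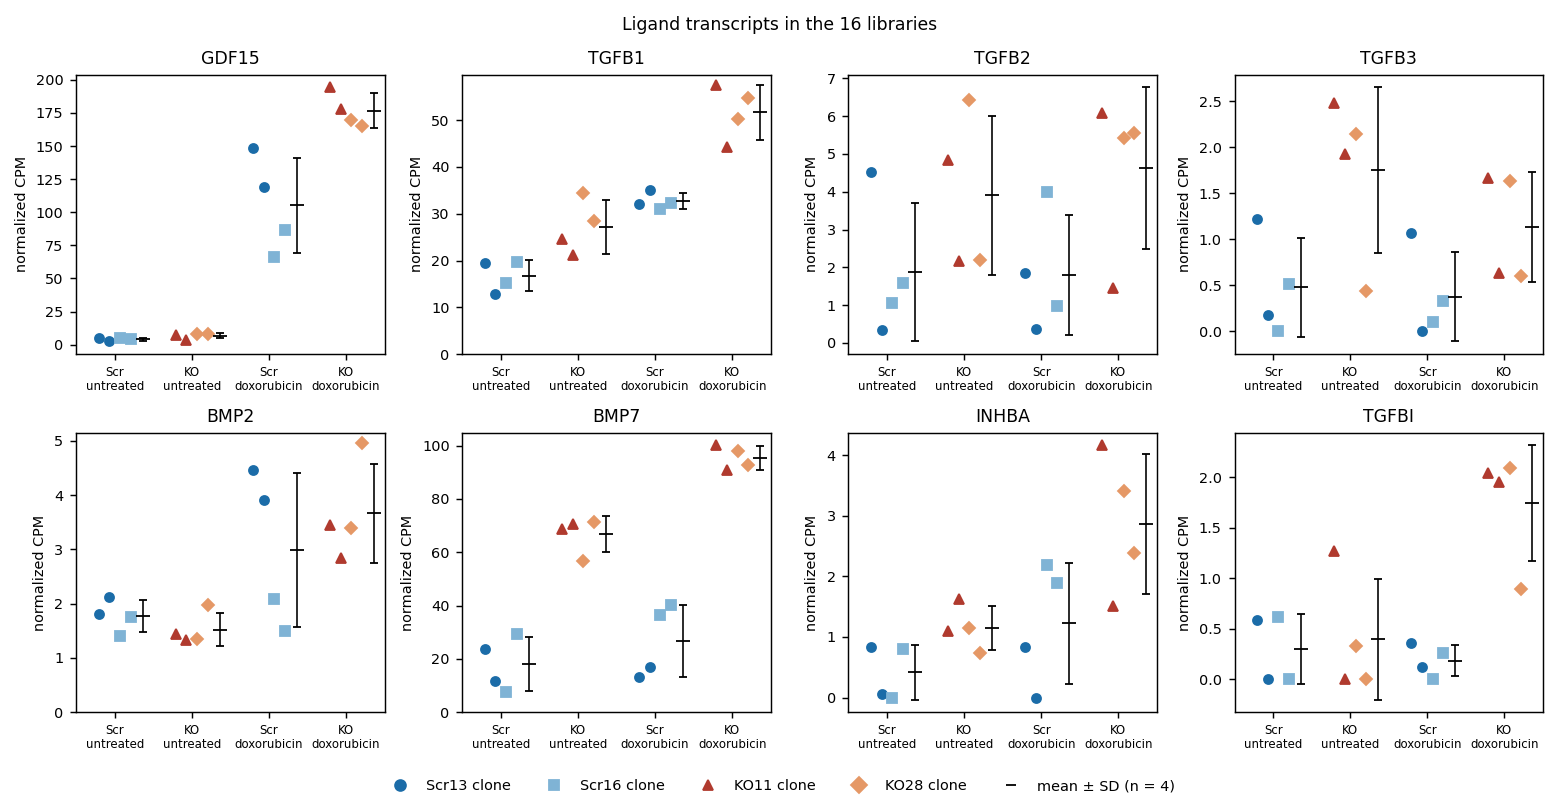
Normalized CPM (vertical axes, linear) of the 8 members in each of the 16 libraries, by group (horizontal axes), with the clone as symbol and the mean ± SD of 4 libraries in black. GDF15 rises from at most 8.17 to at least 66.4 with doxorubicin, and BMP7 separates the libraries labelled TRPM2 KO from the Scr libraries in both treatments.

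Differential expression was tested with limma on log2(normalized CPM + 1) for genes that reached 1 normalized CPM in 4 or more libraries of the comparison, over all such genes, with Benjamini-Hochberg adjustment and an adjusted p under 0.05 as the threshold. On this scale changes of low genes are understated. In the Scr clones, doxorubicin raised GDF15 and TGFB1, which are 2 of 5 members tested, and lowered none. Of all 14378 genes tested, 12.3% were called, 7.1% higher and 5.24% lower. In the clones labelled TRPM2 KO, doxorubicin raised 6 of 8 members tested (GDF15, TGFB1, BMP2, BMP7, INHBA and TGFBI) and lowered none, where 19.6% of 14513 genes were called, 11.3% higher and 8.35% lower. With edgeR's quasi-likelihood test on recovered reads, the first 4 of these 6 were called. Without treatment, TGFB1 and BMP7 were higher in the libraries labelled TRPM2 KO than in Scr, which are 2 of 6 members tested. Of 14364 genes, 4.84% were called in this comparison, 2.3% higher and 2.54% lower. With no filter on low values, limma called 0 of the 6 members in it. After doxorubicin, GDF15, TGFB1 and BMP7 were higher, which are 3 of 6 tested, where 8.69% of 14572 genes were called, 4.52% higher and 4.17% lower. The members that passed the filter differ between comparisons, so these counts cover only those tested. The 4 comparisons share libraries in pairs and are not independent of each other. Their fitted changes are plotted with 95% confidence intervals.

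**Figure D2:**
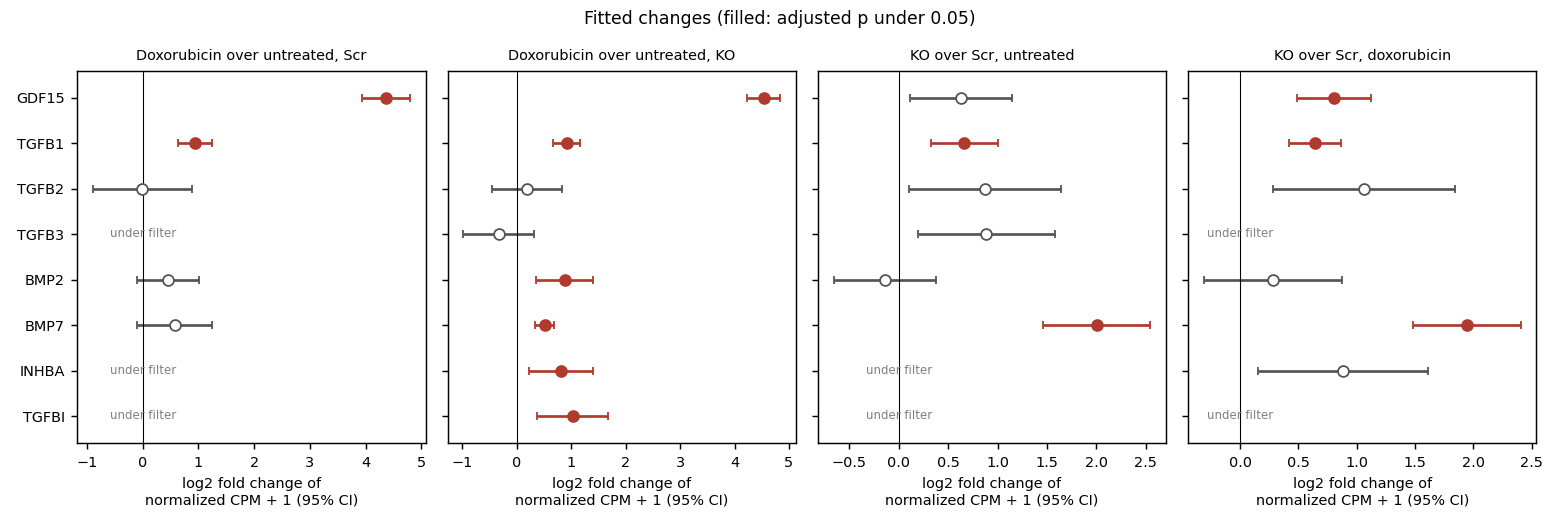
Fitted log2 fold change of normalized CPM + 1 (horizontal axes) with its 95% confidence interval for each member in the 4 comparisons. Filled points passed the threshold of 0.05 on the adjusted p, and members under the filter on low values have no point. GDF15 has a log2 fold change of 4.36 and 4.53 with doxorubicin, and that of BMP7 is near 2 between genotypes.

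GDF15 (ENSG00000130513; chromosome 19 of GRCh38 from 18374731 to 18389176, + strand, with MIR3189 on the same strand) encodes the stress-induced cytokine of the family. Without treatment it had 4.76, 2.48, 4.91 and 4.03 normalized CPM in the Scr libraries, Scr13 first, and 7.66, 3.86, 7.91 and 8.17 in those labelled TRPM2 KO, KO11 first. After doxorubicin the Scr libraries had 148, 119, 66.4 and 86.9 normalized CPM, and those labelled TRPM2 KO had 194, 178, 170 and 165. Every treated library was above every untreated one, both Scr13 libraries were above both Scr16 libraries after treatment, and all 4 treated libraries labelled TRPM2 KO were above the 4 treated Scr libraries. The log2 fold change with doxorubicin was 4.36 in Scr (SE 0.206, limma adjusted p = 1.5e-10) and 4.53 in the clones labelled TRPM2 KO (SE 0.146, limma adjusted p = 4.1e-18). Mean levels rose 36.9-fold in Scr13, 17.1-fold in Scr16, 32.4-fold in KO11 and 20.8-fold in KO28, each from 2 against 2 libraries. The change with doxorubicin differed between genotypes by 0.17 (95% confidence interval -0.41 to 0.75 on the log2 scale, limma adjusted p = 0.945), which is within the spread between libraries.

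Between genotypes, treated libraries labelled TRPM2 KO had more GDF15, at 177 ± 12.96 against 105 ± 36.0 normalized CPM (SD, n = 4). The log2 fold change was 0.81 (SE 0.154, limma adjusted p = 0.00119). Without treatment the groups overlapped, at 6.90 ± 2.04 against 4.05 ± 1.11 normalized CPM (SD, n = 4), and the log2 fold change of 0.63 (SE 0.247, limma adjusted p = 0.203) was not past the threshold. Without the filter on low values, the adjusted p after doxorubicin was 0.177 (limma) at the same fold change. Without clone Scr16, whose treated libraries were the lowest, the log2 fold change was 0.41, and the call held (limma adjusted p = 0.0117, and between 2.6e-07 and 0.177 over 20 alternatives).

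TGFB1 (ENSG00000105329; chromosome 19 from 41301587 to 41353911, - strand) encodes the most widely expressed TGF-beta. On the opposite strand lie HNRNPUL1, CCDC97, AC011462.1 and TMEM91. Whether counting used the strand is not given in the sources used here, so reads of these genes may be among its own. The same holds for TRPM2, BMP7, TGFB3 and INHBA, which also have genes on the opposite strand. The untreated Scr libraries had 19.4, 12.9, 15.2 and 19.7 normalized CPM, and the untreated libraries labelled TRPM2 KO had 24.7, 21.1, 34.5 and 28.4. After doxorubicin the levels were 32.1, 35.1, 31.1 and 32.2 in Scr and 57.5, 44.2, 50.2 and 54.8 in the libraries labelled TRPM2 KO. No groups overlapped in any of the 4 comparisons. Doxorubicin raised TGFB1 by 0.94 on the log2 scale in Scr (SE 0.145, limma adjusted p = 2.4e-04) and by 0.92 in the clones labelled TRPM2 KO (SE 0.12, limma adjusted p = 2.7e-06). The 2 changes differed by -0.020 (95% confidence interval -0.43 to 0.39, limma adjusted p = 0.993). Relative to Scr, the libraries labelled TRPM2 KO were higher by 0.66 without treatment (SE 0.163, limma adjusted p = 0.0184) and by 0.64 after it (SE 0.108, limma adjusted p = 3.2e-04). The untreated call was lost in 7 of 20 alternatives, with adjusted p between 0.00264 and 0.235 (limma, edgeR or DESeq2). They include the fits without replicate 2 of Scr13 (0.0825), replicate 1 of Scr16 (0.0600) or replicate 1 of KO28 (0.0987) and, in limma adjusted p, without clone KO28 (0.226), Scr13 (0.159) or Scr16 (0.0943). The fit with no filter on low values lost the untreated call too. The rise in Scr was lost without clone Scr13 (limma adjusted p = 0.0718, the highest of 18 alternatives) and kept in the other 17.

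BMP7 (ENSG00000101144; chromosome 20 from 57168748 to 57266629, - strand, with BMP7-AS1 on the opposite strand) encodes a BMP known for its role in kidney and nervous system development. On the fitted log2 scale it showed the largest difference between genotypes among the members tested, in both treatments. Untreated Scr libraries had 23.9, 11.7, 7.43 and 29.2 normalized CPM, and untreated libraries labelled TRPM2 KO had 68.7, 70.5, 56.8 and 71.4. Treated Scr libraries had 13.4, 16.8, 36.3 and 40.2 normalized CPM, and treated libraries labelled TRPM2 KO had 100.2, 90.8, 97.8 and 92.5. The genotypes did not overlap in either treatment, and the SD of the untreated Scr libraries, 10.2 normalized CPM around a mean of 18.1 (n = 4), was larger than that of the libraries labelled TRPM2 KO, 6.80 around 66.9 (n = 4). The log2 fold change between genotypes was 2.00 without treatment (SE 0.259, limma adjusted p = 3.3e-05) and 1.94 after doxorubicin (SE 0.223, limma adjusted p = 3.4e-06). After doxorubicin it ranged from 1.30 to 2.59 without a whole clone and was past the threshold each time. Without treatment, the adjusted p was 0.0906 (limma) with no filter on low values, and the other 19 alternatives kept the call, the lowest adjusted p being 3.9e-06.

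With doxorubicin, BMP7 rose in the clones labelled TRPM2 KO, by 0.51 on the log2 scale (SE 0.0874, limma adjusted p = 1.1e-04), and all 4 treated libraries were above the 4 untreated ones. In Scr the groups overlapped, and the log2 fold change of 0.57 (SE 0.323, limma adjusted p = 0.276) was not past the threshold. The Scr clones had opposite signs, with a ratio of treated to untreated means of 0.849 in Scr13 and 2.09 in Scr16. Without replicate 1 of Scr13 in the untreated group, the Scr change was 0.91 with an adjusted p of 0.0472 (limma), the lowest of 18 alternatives, which reached 0.902. The change with doxorubicin differed between genotypes by -0.062 (95% confidence interval -0.86 to 0.73, limma adjusted p = 0.989).

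BMP2 (ENSG00000125845; chromosome 20 from 6767664 to 6780280, + strand), which encodes a BMP that induces bone and acts on neural crest cells, was low in all groups. It had 1.81, 2.13, 1.41 and 1.76 normalized CPM in untreated Scr libraries and 1.43, 1.33, 1.34 and 1.97 in untreated libraries labelled TRPM2 KO. After doxorubicin it had 4.45, 3.91, 2.09 and 1.49 normalized CPM in Scr and 3.46, 2.83, 3.40 and 4.96 in the libraries labelled TRPM2 KO. Treated and untreated groups were separate in the clones labelled TRPM2 KO, and in Scr they overlapped because the Scr16 libraries lay at 2.09 and 1.49. BMP2 rose in the clones labelled TRPM2 KO, by 0.88 (SE 0.253, limma adjusted p = 0.0146). Its change of 0.45 in Scr (SE 0.266, limma adjusted p = 0.299) and its differences between genotypes, -0.14 untreated and 0.28 after doxorubicin (limma adjusted p = 0.868 and 0.654), were not past the threshold. The call in the clones labelled TRPM2 KO was lost in 4 of 18 alternatives. These were the fits without clone KO11 (limma adjusted p = 0.115), clone KO28 (0.0769), treated replicate 1 of KO11 (0.0538) or treated replicate 2 of KO28 (0.0617), and the lowest adjusted p of any alternative was 0.00620.

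TGFB2 and TGFB3 encode the other TGF-beta isoforms, and both were low and uneven among replicates. TGFB2 (ENSG00000092969; chromosome 1 from 218346235 to 218444619, + strand, with TGFB2-OT1 on the same strand) had 4.53, 0.345, 1.04 and 1.59 normalized CPM in untreated Scr libraries and 4.85, 2.17, 6.44 and 2.19 in untreated libraries labelled TRPM2 KO. After doxorubicin it had 1.84, 0.379, 3.99 and 0.974 normalized CPM in Scr and 6.08, 1.45, 5.43 and 5.56 in the libraries labelled TRPM2 KO. The groups overlapped in all 4 comparisons. Replicates of the same clone differed severalfold, as in untreated Scr13, where 115 reads stood against 6. The log2 fold change between genotypes was 0.87 without treatment (SE 0.369, limma adjusted p = 0.258) and 1.06 after doxorubicin (SE 0.376, limma adjusted p = 0.0909). Without untreated replicate 1 of Scr13, the first was 1.25 and past the threshold (limma adjusted p = 0.0439), and without treated replicate 1 of Scr16 the second was 1.39 and past it (limma adjusted p = 0.00984). Without treated replicate 2 of KO11 the second was 1.42 (limma adjusted p = 0.0181), and without clone Scr16 it was 1.39 (limma adjusted p = 0.0287). Over 19 alternatives each, the adjusted p ran from 0.0439 to 0.784 and from 0.00984 to 0.595.

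TGFB3 (ENSG00000119699; chromosome 14 from 75958099 to 75982991, - strand, with IFT43 and TGFB3-AS1 on the opposite strand) had 1.22, 0.173, 0 and 0.511 normalized CPM in untreated Scr libraries and 2.48, 1.93, 2.15 and 0.438 in untreated libraries labelled TRPM2 KO. Treated Scr libraries had 1.07, 0, 0.0951 and 0.325 normalized CPM, and treated libraries labelled TRPM2 KO had 1.66, 0.630, 1.64 and 0.598. The genotypes overlapped in both treatments. The untreated log2 fold change was 0.89 (SE 0.333, limma adjusted p = 0.176), which became 1.17 with an adjusted p of 0.0310 (limma) without replicate 2 of KO28, the lowest of 12 alternatives, which reached 0.756. After doxorubicin TGFB3 was under the filter, and an exact permutation test gave a two-sided p of 0.114. It was 1 of 7 such tests of members under the filter, none of which can give a p below 0.0286.

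INHBA (ENSG00000122641; chromosome 7 from 41667168 to 41705834, - strand, with INHBA-AS1 on the opposite strand) encodes the subunit of activin A. It had 0.827, 0.0576, 0 and 0.795 normalized CPM in untreated Scr libraries and 1.10, 1.63, 1.14 and 0.729 in untreated libraries labelled TRPM2 KO. After doxorubicin it had 0.832, 0, 2.19 and 1.88 normalized CPM in Scr and 4.16, 1.51, 3.40 and 2.39 in the libraries labelled TRPM2 KO. Groups overlapped in all 4 comparisons. With doxorubicin the clones labelled TRPM2 KO rose by 0.81 on the log2 scale (SE 0.286, limma adjusted p = 0.0459). This call was lost in 12 of 17 alternatives, among them edgeR's quasi-likelihood test (adjusted p = 0.0596), the fit without clone KO28 (limma adjusted p = 0.258) and 7 of the 8 fits without a single library, all but that without treated replicate 2 of KO11, up to 0.206 (limma) without treated replicate 1 of KO11. The lowest adjusted p of any alternative was 0.0175. Between genotypes after doxorubicin, the log2 fold change was 0.88 (SE 0.352, limma adjusted p = 0.145). Without treated replicate 1 of Scr16 it was 1.10 and past the threshold (limma adjusted p = 0.0457), and without clone Scr16 it was 1.46 (limma adjusted p = 0.0115, where 19 alternatives reached 0.672). Without treatment, where INHBA was under the filter, the exact permutation p was 0.0857, two-sided.

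TGFBI (ENSG00000120708; chromosome 5 from 136028895 to 136063818, + strand) encodes a matrix protein whose transcription TGF-beta induces, and is not a ligand. It had 0.590, 0, 0.614 and 0 normalized CPM in untreated Scr libraries and 1.27, 0, 0.335 and 0 in untreated libraries labelled TRPM2 KO. After doxorubicin the Scr libraries had 0.356, 0.126, 0 and 0.260 normalized CPM, and those labelled TRPM2 KO had 2.05, 1.95, 2.09 and 0.897. The treated genotypes did not overlap, with 0 to 6 reads per library against 15 to 32 (exact permutation test, two-sided p = 0.0286, the smallest this design allows). TGFBI rose with doxorubicin in the clones labelled TRPM2 KO, by 1.03 (SE 0.318, limma adjusted p = 0.0222). It passed the filter of this fit mainly through treated libraries, since only replicate 1 of KO11 among the untreated ones reached 1 normalized CPM (1.27). With edgeR's quasi-likelihood test on recovered reads, the adjusted p of this rise was 0.0571, without untreated replicate 2 of KO11 it was 0.118 (limma), and with no filter it was 0.124 (limma). The lowest adjusted p of 11 alternatives was 0.0165, and 3 of them lost the call. In the other alternatives TGFBI was under the filter.

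The genotype by doxorubicin interaction, which asks whether the change with doxorubicin differed between genotypes, was tested over the 16 libraries. Of 15325 genes, 3 were called (0.0196%), and of the 8 members 0 were called with limma, edgeR or DESeq2. At an unadjusted p under 0.05 limma found 1148 of the 15325 genes and 1 of the 8 members, TGFBI. Its change with doxorubicin was greater by 1.13 in the clones labelled TRPM2 KO (95% confidence interval 0.26 to 2.01, limma adjusted p = 0.533). TGFBI passed the filter of this fit through libraries labelled TRPM2 KO alone, since the Scr libraries had at most 0.614 normalized CPM. Selected in this way, it gives no support for a difference between genotypes. A call for BMP2, BMP7, INHBA or TGFBI in one genotype alone was therefore not shown to be a difference between genotypes. Between the clones of one genotype, with treatment in the model, 20 of 14513 genes (0.138%) differed between KO28 and KO11 and 5 of 14378 (0.0348%) between Scr16 and Scr13. With limma, 0 of 8 and 0 of 5 members were called, with 1 (TGFB1, higher in KO28 by 0.25, adjusted p = 0.494) and 0 at an unadjusted p under 0.05. Over all genes, 1460 of 14513 and 1009 of 14378 were under that unadjusted p. With edgeR's quasi-likelihood test, 0 of 8 and 0 of 5 members were called as well.

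Some matrix genes of fibroblasts and mesenchymal cells differed between genotypes, and COL3A1 and FN1 also differed between replicates of a clone. In untreated Scr13, replicate 1 had 139 normalized CPM of COL3A1, a fibrillar collagen, and replicate 2 had 10.8. FN1, which encodes fibronectin, stood at 160.2 against 36.7. In treated Scr16, COL3A1 was at 83.9 in replicate 1 and 19.8 in replicate 2, and FN1 at 105 and 46.7. In untreated Scr13, replicate 1 was also the higher for 7 of the 8 members, with BMP7 at 23.9 against 11.7 normalized CPM, TGFB1 at 19.4 against 12.9 and GDF15 at 4.76 against 2.48, and was lower for BMP2 (1.81 against 2.13). In treated Scr16, replicate 1 was higher for TGFB2, INHBA and BMP2 and lower for GDF15, TGFB1, BMP7, TGFB3 (0.0951 against 0.325) and TGFBI (0 against 0.260). Replicate 1 was higher for 2 to 8 of the 8 members in the 8 pairs of replicates, with 8 in treated KO11, where COL3A1 was at 214 against 154 normalized CPM and FN1 at 244.4 against 145. All libraries labelled TRPM2 KO had at least 126 normalized CPM of COL3A1 and 8.24 of LUM, a matrix proteoglycan, while the Scr libraries had at most 139 and 3.15. Of 9 mesenchymal markers, 8 were measured, and COL3A1, COL1A1 and LUM were higher and TWIST1 lower in the libraries labelled TRPM2 KO, in both treatments. SNAI2, THY1 and PDGFRB were tested in both treatments and COL1A2 without treatment, and these were not past the threshold. LUM passed the filter after doxorubicin through the libraries labelled TRPM2 KO alone, since the treated Scr libraries had at most 0.631 normalized CPM. The summed level of the 8 markers was 612, 473, 500.3 and 479 normalized CPM in the untreated Scr libraries, Scr13 first, and 575, 515, 617 and 627 in those labelled TRPM2 KO, KO11 first. After doxorubicin the sums were 487, 481, 514 and 523 in Scr and 595, 549, 617 and 589 in the libraries labelled TRPM2 KO. The most abundant marker was TWIST1 in all Scr libraries and either TWIST1 or COL3A1 in those labelled TRPM2 KO. A marker was at 0 in only 2 libraries, 1 marker each, both from treated Scr clones (Scr13 replicate 1 and Scr16 replicate 1). Of 8 noradrenergic markers tested, 2 were higher, among them GATA3, and 1 was lower in the libraries labelled TRPM2 KO without treatment, and 1 was higher and 1 lower after doxorubicin. Of the blood and endothelial markers only VWF was measured, at a group mean of at most 1.02 normalized CPM. In bulk RNA, a change in the number of cells of a type and a change in RNA per cell cannot be told apart, and the part of these genes in the results of the members was not tested.

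The rest of the pathway was described with gene lists, whose called genes are plotted by list. Among the receptors, 10 of 12 were tested in each comparison, and ACVR2B, a type II receptor for activins, was the most abundant, at 190.1 ± 11.7 normalized CPM in untreated Scr libraries (SD, n = 4). TGFBR2, the type II receptor of TGF-beta, was higher in the libraries labelled TRPM2 KO by 1.20 without treatment (SE 0.276, limma adjusted p = 0.0108) and by 1.72 after doxorubicin (SE 0.419, limma adjusted p = 0.00991). BMPR1B, a type I receptor for BMPs, was lower by 0.67 and 0.82 on the log2 scale (limma adjusted p = 0.0450 and 0.00863). In untreated libraries TGFBR2 had 2.52, 0.518, 0.614 and 1.19 normalized CPM in Scr and 3.97, 3.43, 4.09 and 3.72 in those labelled TRPM2 KO, which did not overlap. Treated Scr libraries had 2.26, 0.0631, 6.84 and 0.454 normalized CPM and those labelled TRPM2 KO 6.85, 5.67, 9.03 and 7.89. The treated groups overlapped, through replicate 1 of Scr16, the library that also stood apart for COL3A1. Of 4 co-receptors tested, RET and RGMA, a co-receptor of BMPs, rose with doxorubicin in both genotypes. RET, the kinase through which GDF15 signals, rose by 0.75 in Scr (SE 0.0671, limma adjusted p = 5.3e-07) and by 1.07 in the clones labelled TRPM2 KO (SE 0.0681, limma adjusted p = 7.6e-12). The changes of RET differed between genotypes by 0.31 (SE 0.102), which was not past the threshold (limma adjusted p = 0.431). Without treatment RET was lower by 0.49 and RGMA higher by 0.91 in the libraries labelled TRPM2 KO (limma adjusted p = 1.5e-04 and 0.0268), and after doxorubicin ENG, which encodes endoglin, was the one co-receptor called, lower by 0.30 (limma adjusted p = 0.0285). GFRAL, the receptor of GDF15, was not analysed here.

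Of the 8 SMADs tested, none was called between genotypes without treatment. After doxorubicin SMAD3, the TGF-beta effector, was lower by 0.45 and SMAD6, an inhibitory SMAD, higher by 0.51 in the libraries labelled TRPM2 KO (limma adjusted p = 0.00698 and 0.0301). With doxorubicin, SMAD9, a BMP effector, and SMAD6 fell in both genotypes, SMAD9 by 0.47 in Scr (limma adjusted p = 1.7e-04) and by 0.44 in the clones labelled TRPM2 KO (limma adjusted p = 4.1e-05). In the latter SMAD1 also fell and SMAD5 rose. Among the genes of latency and activation, LTBP4, which binds latent TGF-beta, and LTBP2, a matrix protein of the same family, rose with doxorubicin in both genotypes, LTBP4 by 0.74 and 0.86 (limma adjusted p = 3.4e-04 and 1.6e-06), which makes 2 of 10 genes tested in Scr and 2 of 9 in the clones labelled TRPM2 KO. In the latter ITGB8 and LTBP1 fell. Between genotypes, ITGAV, an integrin subunit that activates TGF-beta, was the only one of 10 called without treatment, and it was lower by 0.45 in the libraries labelled TRPM2 KO (limma adjusted p = 0.00253). After doxorubicin BMP1 was higher and LRRC32 lower. Of the antagonists, CHRD, which encodes chordin, rose with doxorubicin in both genotypes, by 0.97 in Scr and 1.50 in the clones labelled TRPM2 KO (limma adjusted p = 0.0183 and 4.7e-06). BMPER, a BMP-binding protein, and DCN, which encodes decorin, were higher in the libraries labelled TRPM2 KO in both treatments, 2 of 14 tested, and FSTL3, which binds activin, was also higher after doxorubicin by 0.91 (limma adjusted p = 2.7e-04). DCN was at most 0.472 normalized CPM in untreated and 0.760 in treated Scr libraries, so it passed the filter through the libraries labelled TRPM2 KO alone and had to differ. The medians of these lists between genotypes lay between -0.13 and 0.14 on the log2 scale, beside -0.0073 over all genes without treatment and 0.014 after doxorubicin.

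**Figure D3:**
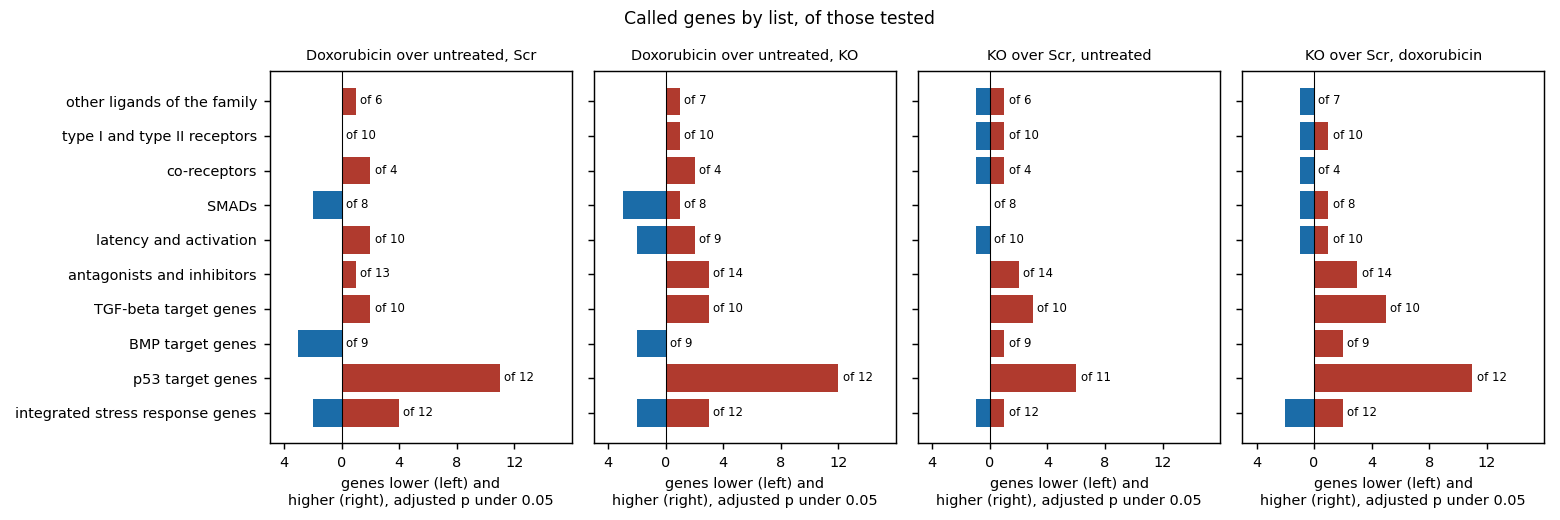
Number of genes called lower (left of 0) and higher (right of 0) at an adjusted p under 0.05 in each gene list (vertical axis) and comparison (panels), with the number tested beside each bar. The p53 targets are called higher in 11 of 12 genes in Scr and 12 of 12 in the clones labelled TRPM2 KO with doxorubicin. Between genotypes, the called p53 targets and TGF-beta targets are all higher in the libraries labelled TRPM2 KO. The remaining lists show calls in both directions or few calls.

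Of 10 TGF-beta target genes tested, FN1, COL1A1 and TAGLN, which encodes a cytoskeletal protein of smooth muscle, were higher in the libraries labelled TRPM2 KO without treatment. After doxorubicin 5 were higher, among them these 3 and JUNB, and none was lower in either treatment. The median log2 fold change was 0.17 without treatment and 0.30 after it. TAGLN had 4.34, 3.60, 3.71 and 3.51 normalized CPM in treated Scr libraries and 20.9, 13.4, 17.0 and 19.2 in treated libraries labelled TRPM2 KO. These groups did not overlap, and the log2 fold change was 1.95 (SE 0.198, limma adjusted p = 7.1e-07). FN1 also differed between the clones labelled TRPM2 KO, where it was higher in KO28 than in KO11 by 0.59 (SE 0.122, limma adjusted p = 0.0430). FN1 and COL1A1 are matrix genes, and COL1A1 also stands in the list of mesenchymal markers. Of 9 BMP target genes, ID4, an inhibitor of transcription factors, was higher without treatment by 1.61 (SE 0.223, limma adjusted p = 7.6e-05) and after doxorubicin by 1.56 (SE 0.245, limma adjusted p = 1.5e-04), where SMAD6 was higher as well. The median BMP target changed by 0.11 and 0.19. With doxorubicin no BMP target gene rose, 3 of 9 fell in Scr (SMAD9, SMAD6 and ID2) and 2 of 9 in the clones labelled TRPM2 KO (SMAD9 and SMAD6). SMAD6 and SMAD9 stand in the list of SMADs too.

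**Figure D4:**
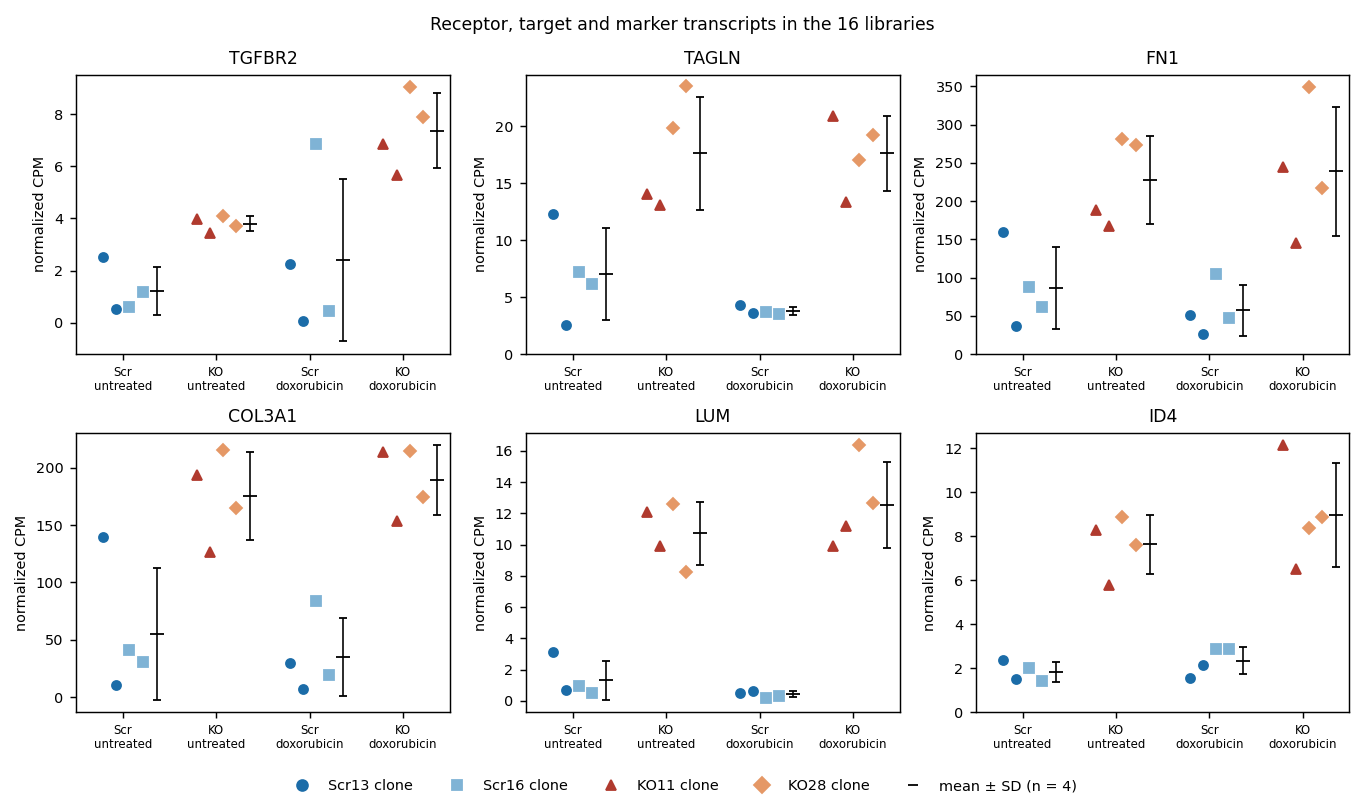
Normalized CPM (vertical axes, linear) of the receptor TGFBR2, the targets TAGLN, FN1 and ID4 and the mesenchymal markers COL3A1 and LUM in each of the 16 libraries, by group, with the clone as symbol and the mean ± SD of 4 libraries in black. ID4 separates the genotypes in both treatments, and replicate 1 of untreated Scr13 and of treated Scr16 stands above the other libraries of its group for COL3A1.

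Target genes of p53 were described as another list. Of 12 such genes, doxorubicin raised 11 in Scr and 12 in the clones labelled TRPM2 KO, with median log2 fold changes of 1.46 and 1.57, beside -0.012 and 0.015 over all genes. In Scr one of them, FAS, which encodes a death receptor, passed the filter through the treated libraries alone. Between genotypes, 6 of 11 tested were higher in the libraries labelled TRPM2 KO without treatment and 11 of 12 after doxorubicin, with medians of 0.40 and 0.70 and none lower. CDKN1A, which encodes the cell cycle inhibitor p21, was higher by 1.27 and 1.13 (limma adjusted p = 3.4e-06 and 2.0e-09). Genes of the integrated stress response were called in both directions. With doxorubicin SESN2, a stress-induced regulator of growth, rose by 1.52 in Scr and 1.65 in the clones labelled TRPM2 KO (limma adjusted p = 3.5e-06 and 1.2e-11). PHGDH, an enzyme of serine synthesis, fell by 0.52 and 0.67 (limma adjusted p = 8.8e-04 and 8.1e-05). In all, 4 of 12 rose and 2 fell in Scr, and 3 rose and 2 fell in the clones labelled TRPM2 KO. Between genotypes 1 was higher and 1 lower without treatment, and 2 were higher (ATF3 and SESN2) and 2 lower (PHGDH and PSAT1) after doxorubicin.

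Of the other ligands of the family, 19 of 25 had a row, and 6 or 7 passed the filter in each comparison of 2 groups. GDF11, AMH and BMP8B were the abundant ones, with group means from 26.5 to 68.2 normalized CPM. BMP8B, a BMP, rose with doxorubicin by 0.49 in Scr and 0.46 in the clones labelled TRPM2 KO (limma adjusted p = 0.00750 and 0.00599). Without treatment GDF11 was higher by 0.32 and AMH, which encodes anti-Müllerian hormone, lower by 0.59 in the libraries labelled TRPM2 KO (limma adjusted p = 0.0383 and 0.0392). After doxorubicin GDF7 was lower by 1.24 (limma adjusted p = 0.00325).

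The genes most like each member over the 16 libraries were found by Pearson's r of log2(normalized CPM + 1) among 15324 genes, which describes libraries that share clones and treatments. GDF15 was most like PLCD3 (r = 0.986), GADD45A (0.981) and DDB2 (0.977), of which GADD45A and DDB2 act in the DNA damage response. TGFB1 was most like ACTA2 (r = 0.963), RPS27L (0.962) and CDKN1A (0.960). BMP7 was most like PCDHB10 (r = 0.938), EPHB4 (0.932) and IGFBP3 (0.930), and BMP2 was most like SHANK3 (0.917), IRF5 (0.907) and CLIP2 (0.905). TGFB2 was most like PTPN14 (r = 0.897), GJA1 (0.889) and COL5A1 (0.887), and TGFB3 most like MIR9-1HG (0.867), APOOL (0.858) and LHX9 (0.847). INHBA was most like JAG1 (r = 0.943), IGF2 (0.881) and FAM210B (0.872), and TGFBI most like NTRK2 (0.944), RAB1A (0.906) and NORAD (0.886). Between members, r was highest for GDF15 with TGFB1 (0.869) and for BMP7 with INHBA (0.809), and lowest for TGFB3 with BMP2 (-0.12).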

How the data were processed

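Poly(A) RNA libraries were made with a directional kit. Per the labels, the authors used HISAT2 2.1.0, HTSeq and edgeR with GRCh38. The deposited values are a signal, counts that the authors scaled to normalized CPM with a factor per library (0.974 to 1.03). Whole reads were recovered for 100% of values (tolerance 0.1 reads). The authors' fold changes, p-values and rankings were not used, and 0 columns of library values were left unassigned.

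Groups came from the labels. Genotypes were compared within a treatment, and treatments within a genotype with the clone as a term, by limma 3.58.1 in R 4.3.3 with an abundance trend. The interaction had no clone term. Libraries of a clone count as replicates although they share it, so the p-values measure the spread between libraries of 2 clones per genotype. Members under the filter were compared by exact permutation tests. Alternatives used edgeR 4.0.16, DESeq2 1.42.0, other filters, scaling and pseudocounts, blocks and left-out libraries or clones. The scripts were tested on simulated data. Named genes were all members, TRPM2 and, per list, up to 4 called and 2 most abundant genes. Genes outside this rule, such as FSTL3 and the genes plotted beside the markers, were picked with their values in view. The members and the gene lists were chosen with earlier results of these data known. Exon lengths and positions came from GENCODE 29. Some listed genes are not reported here.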

Additional observations from a re-analysis of the deposited data

Results flagged for a closer look

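In 32 sets of 4 libraries (8 members in 4 groups), Dixon's test at the 95% level marked 4, where chance marks about 1 in 20. GDF15 was 3.86 normalized CPM in untreated replicate 2 of KO11, and the nearest of the other libraries labelled TRPM2 KO had 7.66. TGFB2 was 1.45 normalized CPM in treated replicate 2 of KO11, against 5.43 in the nearest library. BMP2 was 1.97 normalized CPM in untreated replicate 2 of KO28, above 1.43 in the nearest library. TGFBI was 0.897 normalized CPM in treated replicate 2 of KO28, against 1.95 in the nearest library. The causes were not tested.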

How the results depend on the processing

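Over 40 results and 785 alternatives, 667 kept direction and side of the threshold, 63 fell short of it or gave fewer genes, 17 moved past it or gave more, and 38 changed sign. The rises of GDF15 with doxorubicin in both genotypes, and of TGFB1 and BMP7 in the clones labelled TRPM2 KO, held in all 18 alternatives each. The differences of TGFB1 and BMP7 between genotypes after doxorubicin held in all 20.

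Genes called without treatment between genotypes (695) became 269 with no filter, 330 without clone Scr13, 327 without clone Scr16 and 508 to 678 with each library left out. After doxorubicin (1266) they became 610 with no filter, 510 without clone KO11, 575 without clone KO28 and 814 to 1314 with each library left out. Those called with doxorubicin in Scr (1774) became 568 with no filter, 237 without clone Scr13, 781 without clone Scr16 and 1100 to 1739 with each library left out. In the clones labelled TRPM2 KO (2846) they became 1467 with no filter, 995 without clone KO11 and 2049 to 2903 with each library left out. Interaction genes (3) became 5 with no filter, 1 with pseudocount 0.1, 31 with DESeq2, 0 without clone KO11, 1 without clone KO28, 5 without clone Scr13, 0 without clone Scr16 and 1 to 4 with each library left out. Clone differences, with alternatives chosen after seeing the data, went from 20 to 10 with edgeR and 3 to 91 with each library left out between KO28 and KO11, and from 5 to 2 and 1 to 32 between Scr16 and Scr13. The causes were not tested beyond the smaller number of libraries.

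The main fits did not treat libraries with the same replicate number as pairs. Correlations of the deviations of such libraries lay between -0.025 and 0.086, which cannot tell whether they were handled together. With a replicate block, 22 interaction genes were called, and TGFB2 after doxorubicin between genotypes had an adjusted p of 0.0381 (limma). The block changed no other call of a member.

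Changes of sign concerned values not past the threshold. The interaction of GDF15 was -0.031 with DESeq2, -0.021 with edgeR, -0.14 without clone KO11, -0.37 without clone Scr16 and -0.045 to 0.36 with each library left out. That of TGFB1 was 0.17 without clone KO28, 0.081 without clone Scr13 and -0.13 to 0.099. That of BMP7 was 0.66 without clone Scr16 and -0.34 to 0.27. That of INHBA was -0.051 with pseudocount 0.1, -0.21 with DESeq2, -0.17 with edgeR, -0.37 without clone Scr13 and -0.098 to 0.46. That of TGFB2 was -0.041 without clone KO28, -0.26 without clone Scr13 and -0.19 to 0.55, and that of TGFB3 was 0.046 without clone KO11, with -0.52 to -0.018. BMP2 between genotypes after doxorubicin was -0.17 without clone Scr16. With doxorubicin in Scr, BMP7 was -0.15 without clone Scr16, and TGFB2 was 0.0088 with pseudocount 0.1 and -0.37 to 0.49 with each library left out. In the clones labelled TRPM2 KO, TGFB2 was -0.048 without clone KO28 and -0.11 to 0.54. Depth limits TGFB3, INHBA and TGFBI, which had 0 reads in some libraries, and 2 clones per genotype limit every comparison of genotypes.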
